A study of Mus musculus with 6 samples.

Results

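The 4 Hox gene clusters of the mouse were followed by their CpG methylation in male germ cells of 6 newborn pups. Their members were chosen by position alone: every cytosine of the deposited CpG table inside 4 windows of the genome build mm9, which are HoxA at chr6:52105000-52216000, HoxB at chr11:96050000-96230000, HoxC at chr15:102750000-102870000 and HoxD at chr2:74495000-74610000. The windows span 526 kb and hold 7761 of the table's 10025464 cytosines (0.0774%), which make 6517 CpGs once the strands are joined. HoxA has 2020 of these cytosines, HoxB 2353, HoxC 1585 and HoxD 1803. All pups came from matings between Tex15+/- parents on a mixed strain background, and germ cells were sorted at postnatal day 2.5 by an Oct4-GFP reporter. The groups were Tex15WT (Tex15+/+, pups 8 and 9), Tex15HT (Tex15+/-, pups 7 and 18) and Tex15KO (Tex15-/-, pups 3 and 16), and each sample was the DNA of a separate pup, about 10 ng, read by whole-genome bisulfite sequencing. The nature of the Tex15 mutation and the carrier of the reporter are not stated in the labels. The 4 Tex15WT and Tex15HT pups are called the controls below.

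Hox genes encode homeodomain transcription factors that give cells their position along the head-to-tail axis of the embryo, and their order on the chromosome follows the order in which they are used. In cells that do not use them they are known to be kept silent by Polycomb complexes rather than by DNA methylation, and the CpG-rich, unmethylated stretches around such developmental genes are known as DNA methylation valleys. Male germ cells of this age have rewritten most of their methylation after its erasure in the fetus. Tex15 encodes a germ cell protein that acts with the PIWI pathway, which directs methylation to retrotransposons, and Hox clusters are known to hold few of those.

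Levels were also read at the promoters of single Hox genes, and 4 of these promoters are shown here. Promoter sequences came from RefSeq (build GRCm38.p6, 250 bases before the gene's start to 50 after it), and were placed on the mm9 table by their CpGs: a promoter was slid along its cluster until the CpGs listed in the table fell on its own. Capitals mark the CpGs that the table lists. Hoxa3, an anterior gene of its cluster, was placed at chr6:52163017-52163316 (minus strand), Hoxb1, known for its part in the hindbrain, at chr11:96226822-96227121 (plus strand), and Hoxd10 and Hoxd11, posterior genes of limb and trunk, at chr2:74529698-74529997 and chr2:74520130-74520429 (plus strand). The Hoxa3 promoter lies between those placed for Hoxa6 and Hoxa7, so it is not at the anterior end of HoxA. The 4 are chosen for their calls (Hoxa3 and Hoxd10), for the position at a cluster's end (Hoxb1) and for the highest value in any pup (Hoxd11).
Hoxa3: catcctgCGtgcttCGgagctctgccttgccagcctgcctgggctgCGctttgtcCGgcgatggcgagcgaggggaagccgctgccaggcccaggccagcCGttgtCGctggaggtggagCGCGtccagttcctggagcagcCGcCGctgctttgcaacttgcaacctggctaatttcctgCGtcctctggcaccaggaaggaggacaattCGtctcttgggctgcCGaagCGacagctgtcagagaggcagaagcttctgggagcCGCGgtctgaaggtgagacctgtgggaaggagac
Hoxb1: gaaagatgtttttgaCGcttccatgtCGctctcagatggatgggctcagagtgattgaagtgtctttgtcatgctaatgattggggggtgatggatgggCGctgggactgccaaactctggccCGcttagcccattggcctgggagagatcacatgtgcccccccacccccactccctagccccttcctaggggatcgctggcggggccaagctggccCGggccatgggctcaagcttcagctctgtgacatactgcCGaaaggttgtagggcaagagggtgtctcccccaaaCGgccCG
Hoxd10: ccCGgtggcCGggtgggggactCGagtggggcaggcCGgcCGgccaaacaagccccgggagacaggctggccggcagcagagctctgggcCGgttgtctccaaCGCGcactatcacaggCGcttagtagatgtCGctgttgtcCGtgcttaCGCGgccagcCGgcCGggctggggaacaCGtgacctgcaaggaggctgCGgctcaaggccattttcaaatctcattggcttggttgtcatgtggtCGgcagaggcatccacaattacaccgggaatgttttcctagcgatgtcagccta
Hoxd11: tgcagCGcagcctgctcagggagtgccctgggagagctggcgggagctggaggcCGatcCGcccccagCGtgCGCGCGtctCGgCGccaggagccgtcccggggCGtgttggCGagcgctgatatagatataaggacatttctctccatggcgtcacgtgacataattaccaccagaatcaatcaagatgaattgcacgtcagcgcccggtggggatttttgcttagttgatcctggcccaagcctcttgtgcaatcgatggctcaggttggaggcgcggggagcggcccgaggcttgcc

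A CpG in capitals is 1 at which methylation was measured. The table lists 16 of the 20 CpGs of the Hoxa3 sequence, 8 of 10 in Hoxb1, 18 of 22 in Hoxd10 and 11 of 25 in Hoxd11. Of the 40 genes sought (39 Hox genes and Evx2, a homeobox gene at the end of HoxD), 23 had a sequence and 17 were placed, with 18 promoters, and 2 non-coding genes were placed as well, all on 5 to 36 coinciding CpGs. Hoxa9, Hoxb4, Hoxc4, Hoxd4, Hoxd8 and Hoxd13 had a sequence and could not be placed, so HoxC has no placed promoter. The placements of a cluster were found separately from each other. The same shift between the builds was found for 9 of 10 promoters in HoxA, 3 of 3 in HoxB and 7 of 7 in HoxD. The remaining HoxA promoter had another shift and was kept, so its place is less sure.

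The values carry calls of very different kinds, which bears on every comparison. Over the whole table the samples held 27495658 to 52935635 calls. A call is a read of 1 cytosine as methylated or not, and a level is the methylated calls over all calls. Tex15KO 3 stood apart: it had no call at 71.7 to 76.2% of the cytosines of each Hox cluster, against 0.946 to 11.5% in the other 5 pups. Where it had calls it had many, 9.21 per covered CpG against 3.11 to 4.92 in the others. Of its Hox CpGs with at least 4 calls, 6.10% showed a mixture of methylated and unmethylated calls, against 18 to 22.4% in the other pups. Reads carried no molecular identifiers, so intervals given here cover counting error only.

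Each cluster lay far below its surroundings in every pup. HoxA was methylated at 9.63 and 8.98% of calls in Tex15WT, 10.5 and 9.35% in Tex15HT pups, and 15.2% (pup 3) and 9.91% (pup 16) in Tex15KO. HoxB lay at 23.7 and 24.1%, then 23.3 and 22.3%, then 24.4 and 24.0% in the same order of pups. HoxC lay at 15.7 and 16.7%, 16.4 and 14.2%, and 20.7 and 16.5%. HoxD lay at 12.2 and 11.6%, 11.1 and 12.5%, and 11.7 and 13.0%. HoxB was thus the highest cluster in all 6 pups, and HoxA or HoxD the lowest. Each value rests on 3537 to 10016 calls, and the 95% Wilson interval of the widest, HoxC in Tex15KO 3, ran from 19.4 to 22.1%.

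The 100 kb on either side of a cluster served as its own background in the same pup. These flanks lay at 54.1 to 60.6% around HoxA, 60.9 to 69.2% around HoxB, 63.3 to 73.2% around HoxC and 58.5 to 65.3% around HoxD. The cluster minus its flanks was -45.5 points ± 3.67 in HoxA, -40.2 ± 3.22 in HoxB, -49.6 ± 2.04 in HoxC and -49.8 ± 3.26 in HoxD (SD, n = 6 pups). All 6 pups had the same direction in every cluster, and a two-sided exact sign-flip permutation test gave 0.0312 for each (0.0312 after Benjamini-Hochberg adjustment over the 4 clusters), the smallest p that 6 pups allow. The gap depended on the length of the flanks, from -34.8 points with 50 kb to -54.9 with 200 kb in HoxA, and from -35.1 with 50 kb to -49.6 with 100 kb in HoxC.

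**Figure D1:**
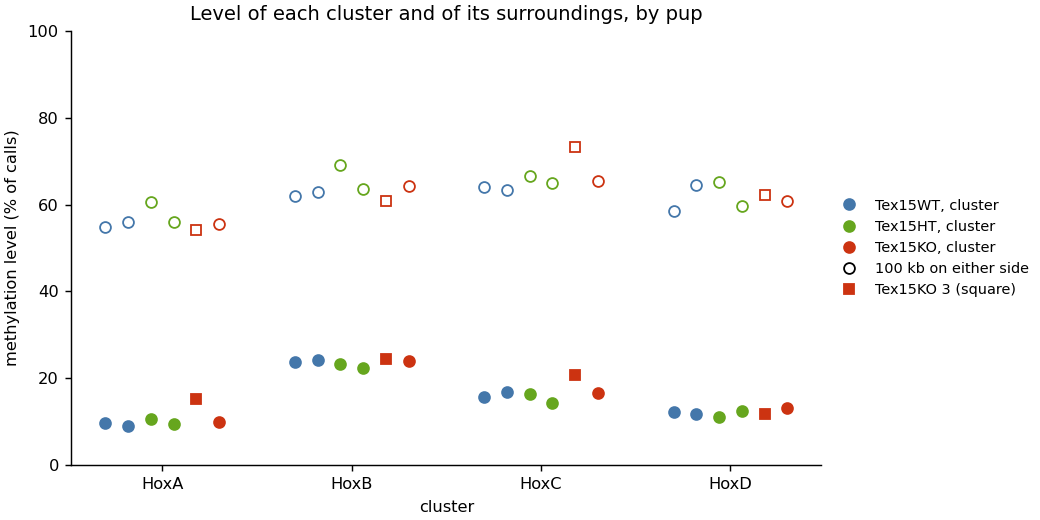
Methylation level of each Hox cluster (filled) and of the 100 kb on either side (open), in percent of calls, with 1 point per pup, coloured by genotype and Tex15KO 3 drawn as a square. The clusters lie between 8.98 and 24.4% and the flanks between 54.1 and 73.2%, and Tex15KO 3 is above the other pups in HoxA and HoxC.

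Cut into 1 kb tiles, the clusters were not each a single unmethylated valley, so the label "unmethylated valleys" holds for part of their length. With the 4 controls pooled, 225 of the 495 tiles with at least 10 calls (45.5%) were under 10%, 97 lay between 10 and 50%, and 173 (34.9%) were over 50%. Under 10% were 52.8% of tiles in HoxA, 34.9% in HoxB, 44.6% in HoxC and 55.0% in HoxD. In the flanks 7.20% of 708 tiles were under 10%, against 2.47% of 1846337 tiles elsewhere in the table. Of the Hox tiles, 115 were over 80%, 55 of them in HoxB. Of 4303 single Hox CpGs with at least 10 pooled calls, 79.3% were under 20%, 8.25% over 80% and 12.5% in between. These cuts are not those used for the tiles. Tiles with many CpGs, which were lower, also weigh more when CpGs are counted, so the 2 sets of shares cannot be compared.

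**Figure D2:**
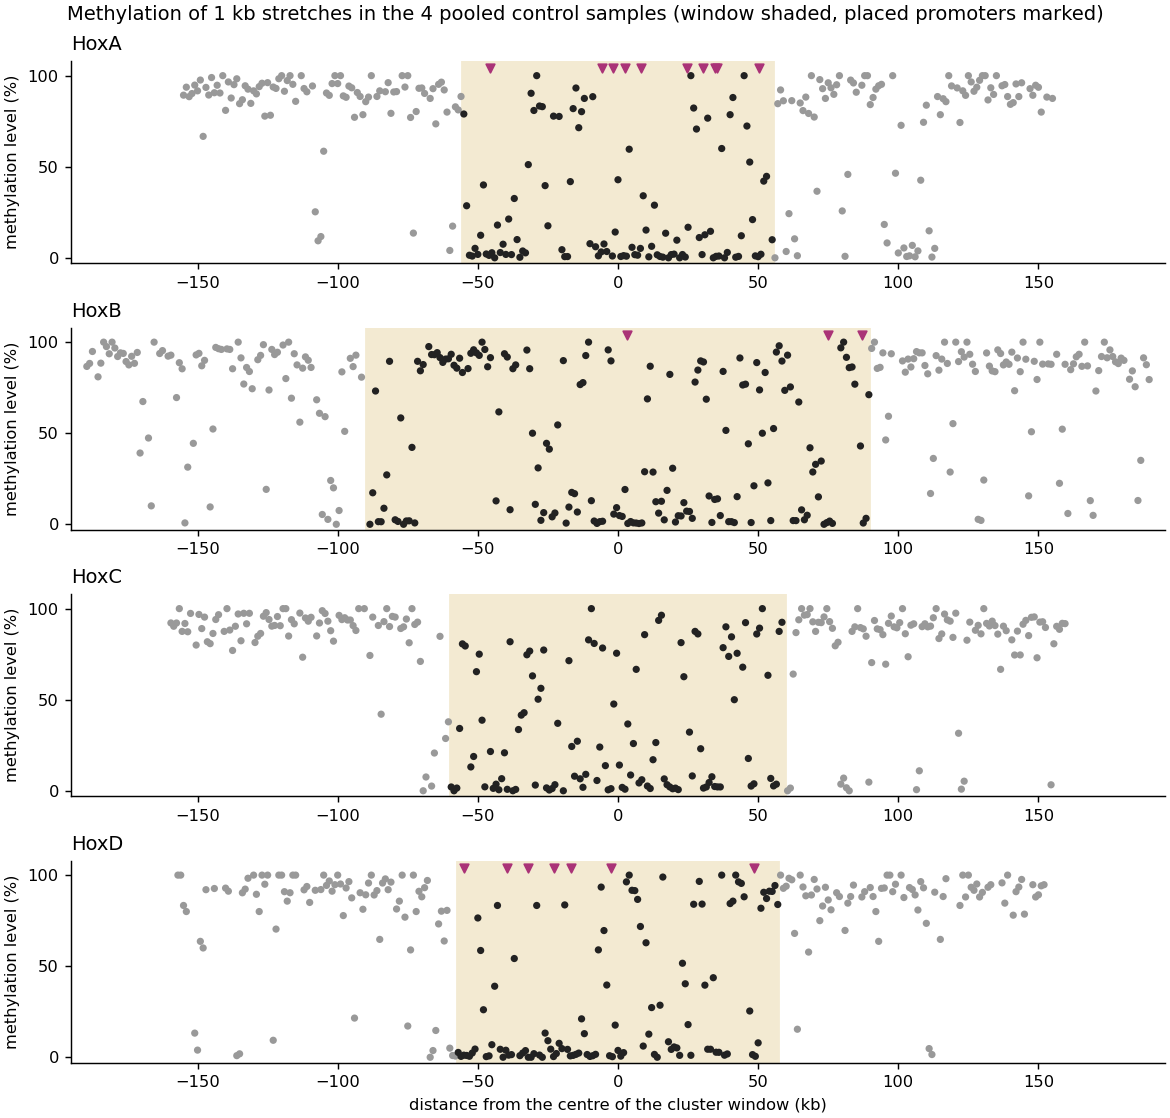
Methylation level of every 1 kb tile with at least 10 calls in the 4 pooled controls, against the distance in kb from the centre of the cluster's window; the window is shaded, flanking tiles are grey, and triangles mark placed promoters. Low tiles make up 34.9 to 55.0% of the shaded tiles in each cluster and are broken by tiles over 50%, with 27 kb of methylated tiles in the left part of HoxB.

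The low tiles formed 85 runs of adjoining tiles under 10%, with a median length of 2 tiles, and 39 runs were 3 tiles or longer. The longest run, 10 tiles at chr2:74492001-74502000, holds the placed promoter of Evx2 and reaches past the left edge of the HoxD window. Its level was 1.81 and 1.75% in Tex15WT pups, 0.756 and 1.63% in Tex15HT pups, and 1.75% (pup 3) and 3.35% (pup 16) in Tex15KO. The longest of HoxA, 7 tiles at chr6:52178001-52185000, lay at 2.15 and 1.13%, 0.541 and 0.796%, and 2.82 and 0.617% in the same order. Its right end reaches into the second promoter of Hoxa10, a posterior gene of uterus and limb. In HoxC the 7 tiles at chr15:102840001-102847000 lay at 3.89 and 4.03%, 1.47 and 1.28%, and 2.30 and 1.91%. In these 3 runs all 6 pups were under 5%, and the groups overlapped or differed by less than 3 points.

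Tex15KO 3 lay above the 5 other pups in 23 of the 85 low runs and was over 10% in 14 of these, counting runs with at least 10 of its calls. Tex15WT 9 was the highest pup in 26 runs and over 10% in 5 of them, and Tex15HT 7 in 10 and 3. The other 3 pups were highest in 5 to 11 runs and over 10% in 0. Runs were chosen as under 10% in the pooled controls, which holds down the control levels but not those of Tex15KO. Such counts were not made for low runs elsewhere in the genome, so they do not set the Hox runs apart. At chr11:96143001-96149000, 6 tiles of HoxB that hold most of the Hoxb8 promoter, the levels were 0 and 1.25% in Tex15WT pups, 1.37 and 0.231% in Tex15HT pups, 12.9% in Tex15KO 3 and 1.57% in Tex15KO 16. At chr2:74517001-74523000, which holds the Hoxd11 promoter shown above, they were 1.13 and 1.53%, 0.383 and 1.48%, 14.1% and 1.15%. Tex15KO 3 had 155 and 156 calls there against 261 to 575 in the other pups. None of its calls fell on the placed Hoxb8 promoter. Its methylated calls in the HoxB run lay in the tiles chr11:96143001-96144000 (71.4% of 14 calls) and chr11:96144001-96145000 (35.7% of 28). The other tiles of that run were at 0% or had no call in this pup. The highest values of Tex15KO 3 in runs of 3 tiles or more were 50% of 12 calls at chr6:52118001-52121000 and 46.2% of 26 calls at chr11:96063001-96066000. Over the whole of these runs the other pups were at most at 4.72 and 3.28%. All calls of Tex15KO 3 there lay in a single tile each, chr6:52118001-52119000 and chr11:96063001-96064000, the latter with 3 CpGs. In those tiles the other pups were at most at 3.81 and 3.45%. At chr11:96054001-96057000 Tex15KO 3 lay at 14.2% of 232 calls, and the others at most at 5.42%. These runs were singled out after their values were seen.

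Hox clusters held some of the long unmethylated runs of the table, but not the longest, which had 17 tiles. Of 438 runs of at least 5 tiles 11 (2.51%) touch a Hox cluster, of 51 runs of at least 8 tiles 1 (1.96%) does, and of the 8 runs of at least 11 tiles 0 do. Of all 28866 runs 0.294% touch a Hox cluster. These counts describe the pooled controls, and no test was made of them.

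Between the runs lay methylated stretches, here tiles over 50% not broken by a lower tile. There were 63 of them, and in HoxA, HoxC and HoxD the longest were 6, 5 and 7 kb. HoxB held 1 of 27 kb, at chr11:96068001-96095000, with 155 CpGs in 25 tiles. Its level was 92.0 and 88.7% in Tex15WT pups, 93.3 and 91.6% in Tex15HT pups, 96.9% in Tex15KO 3 and 93.5% in Tex15KO 16. It thus lay at the level of the flanking tiles, whose median was 88.1% around HoxB in the pooled controls. The nearest placed promoter, of Hoxb8, was 48.0 kb away. As background, Hoxb13 is known to stand apart from the other HoxB genes, but its promoter had no sequence and this stretch was not assigned to a gene.

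By the rule for named tiles, the highest of HoxD were chr2:74556001-74557000, chr2:74589001-74590000 and chr2:74594001-74595000, each at 100% in the pooled controls on 39, 37 and 22 calls. The highest of HoxB was chr11:96197001-96198000, at 98.0% of 50 calls, and of HoxC chr15:102825001-102826000, at 96.4% of 55. In HoxA it was chr6:52186001-52187000, with 1 CpG read as methylated in 21 of 21 calls and 0.813 kb from the second Hoxa10 promoter. These tiles held 1 to 4 CpGs. The other 6 that the rule named lay between 90.3 and 97.6%, at chr6:52129001-52130000 and chr6:52145001-52146000, chr11:96072001-96073000 and chr11:96219001-96220000, and chr15:102824001-102825000 and chr15:102868001-102869000. The unmethylated tiles with most calls held 32 to 69 CpGs, at 0.521 to 1.04% in the pooled controls. Those are chr6:52195001-52196000, over the promoter of Hoxa11 and of its antisense gene Hoxa11os (0.803% of 872 calls), chr11:96214001-96215000 over that of Hoxb3os (0.913% of 876), chr15:102812001-102813000 (0.871% of 918) and chr2:74506001-74507000 (0.770% of 909). The other 4 are chr6:52203001-52204000, chr11:96227001-96228000 with the end of the Hoxb1 promoter, chr15:102806001-102807000 and chr2:74536001-74537000, which is 0.132 kb from the Hoxd9 promoter.

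The number of listed CpGs in a tile and its level went together. Over the 495 Hox tiles Spearman's rho was -0.734, and within clusters it ran from -0.690 in HoxB to -0.766 in HoxD. These are descriptions across tiles that share their libraries, and neighbouring tiles are not independent. In the pooled controls, Hox tiles with 1 or 2 CpGs lay at 79.0%, those with 3 to 9 at 53.6%, those with 10 to 19 at 14.8% and those with 20 or more at 2.44%. The clusters differed most in the sparse tiles: with 3 to 9 CpGs, HoxC lay at 39.1%, HoxD at 52.3%, HoxA at 55.7% and HoxB at 63.9%. With 20 or more CpGs all 4 were low, from 1.28% in HoxD to 3.95% in HoxB.

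Set against tiles elsewhere with as many listed CpGs, the Hox tiles were lower in every pup. Listed CpGs can be fewer than those of the sequence, so tiles of a class may still differ in true CpG number. Hox tiles with 3 to 9 CpGs lay at 55.5% ± 3.34 and other such tiles at 83.6% ± 1.15 (SD, n = 6 pups), a difference within pups of -28.1 points ± 2.50. With 10 to 19 CpGs the levels were 15.8% ± 1.61 and 48.6% ± 1.93, a difference of -32.9 points ± 0.659. With 20 or more they were 2.62% ± 0.555 and 15.3% ± 1.23, a difference of -12.6 points ± 1.65. In each class 6 of 6 pups had lower Hox tiles, and the two-sided exact sign-flip permutation test gave 0.0312 (also 0.0312 adjusted over the 3 classes), the smallest it can give. Sums of calls outside the clusters are weighted by a few cytosines of very high coverage. Without the top 0.1% of coverage the differences were -30.2, -48.9 and -3.34 points, and with the mean of tile levels -26.6, -50.7 and -4.84 points. The direction held in both, but the size in the classes of 10 or more CpGs depends on this choice.

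**Figure D3:**
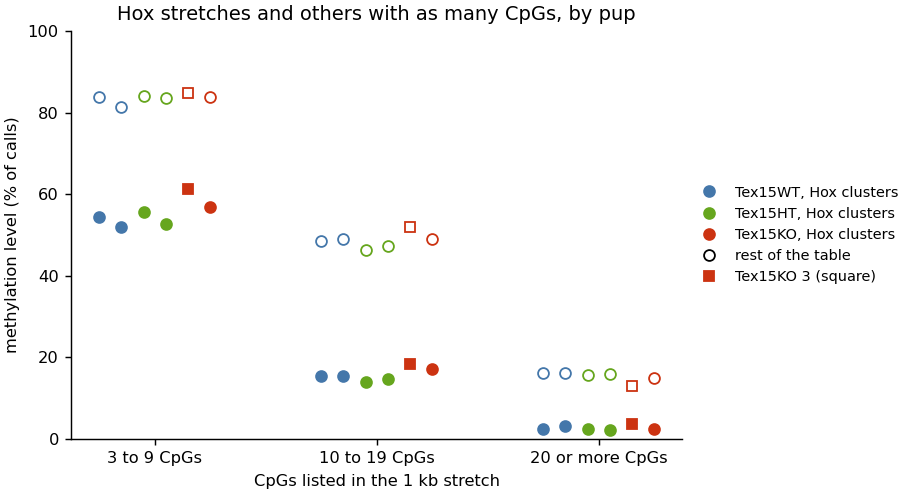
Methylation level, in percent of calls, of 1 kb tiles with 3 to 9, 10 to 19 and 20 or more listed CpGs, with 1 point per pup; filled points are tiles of the Hox clusters and open points the rest of the table, and Tex15KO 3 is a square. In each class all 6 filled points lie below all open points, by -28.1, -32.9 and -12.6 points on average.

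Hox promoters were low in the controls. In the pooled controls the 18 placed promoters lay between 0 and 5.15%, and 5 of them (Hoxa6, Hoxa13, Hoxd3, Hoxd11 and Hoxd12) at 0. These values cover the listed CpGs of a promoter only. Listed were 6 of 26 CpGs at Hoxa6, 6 of 45 at Hoxa13 and 12 of 20 at Hoxd3. At Hoxd11 it was 11 of 25, and at Hoxd12 6 of 13. Hoxd10 lay at 0.943 and 0% in Tex15WT pups, 0 and 1.27% in Tex15HT pups, and 0.645 and 0% in Tex15KO, from 43 to 155 calls. Hoxa3 lay at 2.04 and 0%, 0 and 0%, and 0 and 0%, from 31 to 82 calls. All 6 pups overlapped at both genes.

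The highest promoter in the controls was that of Hoxa5, a gene known from lung development, at 0 and 12.5% in Tex15WT pups and 0 and 5.66% in Tex15HT pups. It had no call in Tex15KO 3 and lay at 0% of 53 calls in Tex15KO 16. Hoxb1 lay at 6.90 and 3.70% in Tex15WT pups, 3.70 and 3.23% in Tex15HT pups, and 2.08 and 7.50% in Tex15KO. Its sequence is at the edge of a low run: the tile that holds its middle, with 7 CpGs, was at 43.0% in the pooled controls. The tile of the second Hoxa10 promoter was at 16.8%, and the other 18 of the 20 placed promoters (with Hoxa11os and Hoxb3os) sat in a tile under 10%.

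The remaining promoters of HoxA were low in each pup with calls. Hoxa2, a gene of hindbrain and face, lay at 1.43% of 70 pooled control calls, with 7.14% of 14 calls in Tex15KO 3 and 4.65% of 43 in Tex15KO 16. Hoxa7, a gene of the trunk, lay at 1.49% of 67 control calls and at 10.0% of 20 in Tex15KO 16. The 2 Hoxa10 promoters lay at 3.08% of 130 and 1.96% of 102 control calls and at 0% of 53 and 61 in Tex15KO 16. Hoxa11 lay at 1.96% of 51 control calls, with 1 methylated call among 13 in Tex15WT 8 (7.69%), and at 0% of 45 in Tex15KO 16. Hoxa13, a gene of the limb ends, lay at 0% of 61 control calls, 0% of 56 in Tex15KO 3 and 0% of 8 in Tex15KO 16, and a count of 0 in 61 has an upper 95% Wilson bound of 5.92%. In all of these the values above 0 rest on few calls.

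From the Evx2 end of HoxD, Evx2 lay at 1.85% of 162 control calls and at 0% in both Tex15KO pups. Hoxd12 lay at 0% of 63 control calls, and Hoxd9 at 0.667% of 150, with 0.581% of 172 calls in Tex15KO 3 and 4.76% of 21 in Tex15KO 16. Hoxd3 was read as unmethylated in all 120 control calls and in the 28 and 48 calls of the Tex15KO pups. Hoxd1, at the anterior end, lay at 1.42% of 212 control calls and at 0% of 48 and 1.18% of 85 calls in Tex15KO. Hoxb8, a gene of the trunk in HoxB, lay at 0.917% of 109 control calls and at 5% of 40 calls in Tex15KO 16, with no call in Tex15KO 3.

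Hoxd11 held the highest value of any placed Hox promoter in a single pup. It lay at 0% of 32 and 44 calls in Tex15WT pups, 0% of 20 and 35 calls in Tex15HT pups and 0% of 17 calls in Tex15KO 16, and at 22.7% of 44 calls in Tex15KO 3. Of the 18 promoters Tex15KO 3 had no call at 6. Summed over the 18, the level was 1.30 and 2.19% in Tex15WT pups, 0.424 and 1.67% in Tex15HT pups, and 1.91% (pup 3) and 1.33% (pup 16) in Tex15KO, from 472 to 826 calls. The 3 groups overlapped, at 1.74% ± 0.628, 1.05% ± 0.881 and 1.62% ± 0.409 (SD, n = 2 each). The non-coding Hoxa11os and Hoxb3os, added after the table was seen, lay at 0.935 and 0.431% in the pooled controls.

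Promoters of other developmental regulators were low as well. Of 47 such genes 17 were placed, among them Pax6, Gata2, Cdx2 and Emx2, with 20 promoters. Their summed level was 1.75 and 1.96% in Tex15WT pups, 3.51 and 2.40% in Tex15HT pups, and 1.28 and 1.79% in Tex15KO, where Tex15KO 3 had no call at 6 of the 20. Higher values were seen at Lhx3, a gene of pituitary and motor neurons, at 34.6 and 52.6%, 57.1 and 70.8%, and 21.9% in Tex15KO 16, with no call in Tex15KO 3. The first promoter of Foxa2, a gene of endoderm and floor plate, lay at 20% of 20 calls in Tex15KO 3 and at 0 to 2.63% in the other pups.

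Promoters of germ cell genes, which somatic cells are known to keep methylated, were higher in several pups. Over 13 promoters of 10 genes, some of which overlap, the summed level was 16.7 and 20.3% in Tex15WT pups, 7.26 and 6.17% in Tex15HT pups, and 0.613% (pup 3) and 8.38% (pup 16) in Tex15KO. The value of Tex15KO 3 rests on 5 of the 13 promoters, of 3 genes (Dazl, Stk31 and Tdrd1), and 233 of its 326 calls were at Dazl. In the summed level, both Tex15WT pups lay above the 3 other pups that had at least 5 calls at 12 or 13 of the promoters. Dazl, a germ cell RNA-binding protein, lay at 43.1 and 50% in Tex15WT pups, 2.99 and 0% in Tex15HT pups, and 0.858 and 25.8% in Tex15KO. The genes of the list did not all behave like Dazl. Both Tex15WT pups were also above all other pups with calls at Ddx4, Stk31 and Tex101. At Sycp1, Rpl10l and Slc25a31 a Tex15WT pup was highest, but the other Tex15WT pup lay below a pup of another group. The highest pup was from Tex15HT at Hormad1 and Sycp3, and from Tex15KO at Tdrd1. Whether the makeup of the sorted cells has a part in any comparison of genotypes here was not tested, and more somatic cells in a sort and more methylation per germ cell cannot be told apart in bulk DNA. At the summed Hox promoters no pup was above 2.19%.

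**Figure D4:**
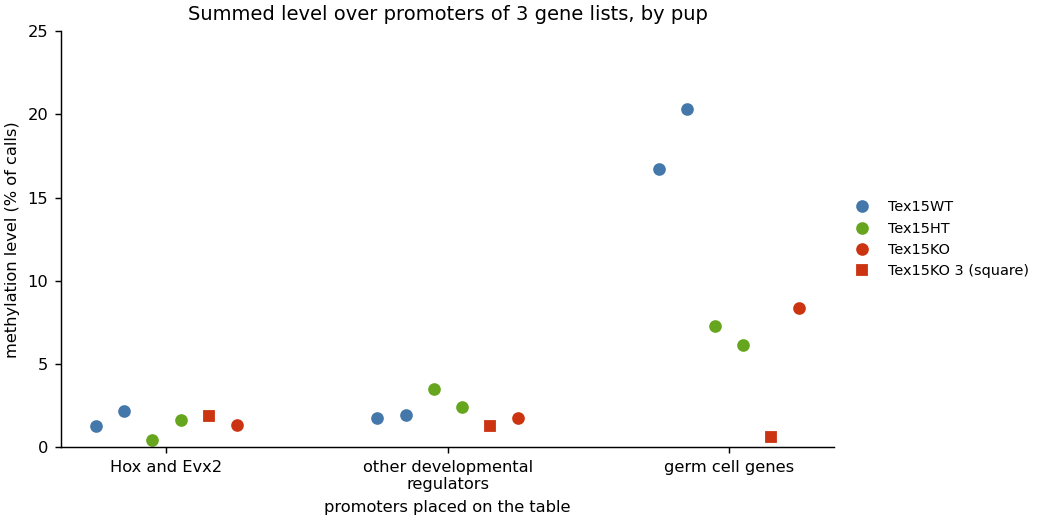
Summed methylation level, in percent of calls, of placed promoters in 3 gene lists, with 1 point per pup and Tex15KO 3 as a square. Hox promoters lie between 0.424 and 2.19% and other developmental regulators between 1.28 and 3.51%, while germ cell genes run from 0.613 to 20.3% with both Tex15WT pups highest; the 0.613% of Tex15KO 3 covers 5 of 13 promoters.

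The comparison of genotypes asked whether the clusters change in Tex15KO, whose purpose in the study was the methylation of retrotransposons. No cluster passed a test between genotypes. HoxA averaged 9.30% ± 0.462 in Tex15WT pups, 9.92% ± 0.804 in Tex15HT pups and 12.6% ± 3.75 in Tex15KO pups (SD, n = 2 each). Tex15KO minus the 4 controls was 2.95 points in HoxA, 0.850 in HoxB, 2.83 in HoxC and 0.502 in HoxD, with an exact two-sided permutation p of 0.133, 0.267, 0.133 and 0.467 (adjusted 0.727 each over 12 comparisons). Against Tex15WT alone the differences were 3.25, 0.301, 2.37 and 0.434 points, and Tex15HT minus Tex15WT gave 0.614, -1.10, -0.924 and -0.138 points, with exact permutation p of at least 0.333. The sizes depended on how the calls were averaged: with the mean over cytosines, Tex15KO minus the 4 controls was 2.98 points in HoxB and 0.976 in HoxC. These designs cannot pass 0.05: the smallest p is 0.0667 for 2 against 4 pups and 0.333 for 2 against 2.

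The differences of HoxA and HoxC rest on Tex15KO 3. Without it, Tex15KO minus the controls was 0.296 points in HoxA and 0.732 in HoxC, and without Tex15KO 16 it was 5.59 and 4.94. Tex15KO 16 lay inside the range of the controls in both, at 9.91% against 8.98 to 10.5% in HoxA and at 16.5% against 14.2 to 16.7% in HoxC. At the 381 HoxA CpGs with a call in each of the 6 pups, Tex15KO 3 was at 15.6% and the others at 10.8 to 12.4%. At the 304 such CpGs of HoxC it was at 20.9% and the others at 11.8 to 16.6%. Tex15KO minus the 4 controls at these shared CpGs was 1.58 points in HoxA (exact permutation p = 0.533) and 3.46 in HoxC (exact permutation p = 0.267). The part of uneven coverage in these differences was not tested further.

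Tiles were then tested singly, in a fit over 330110 tiles of the table, each with 3 or more CpGs and 10 or more calls per pup. Of the 508 Hox tiles with a listed CpG, 242 passed this filter: 59 in HoxA, 75 in HoxB, 54 in HoxC and 54 in HoxD. EdgeR's quasi-likelihood test with Benjamini-Hochberg adjustment over all tiles called 0 Hox tiles in Tex15KO against Tex15WT, where it called 0.00969% of all tiles. It also called 0 Hox tiles against Tex15HT (0.00576% of all tiles), against the mean of both control groups (0.0385%) and in Tex15HT against Tex15WT (0.00121%). At an unadjusted p under 0.05, Tex15KO against Tex15WT gave 3 lower and 6 higher Hox tiles, 3.72% against 2.71% of all tiles. Against Tex15HT it was 0 lower and 5 higher (2.21% of all tiles), against both control groups 1 and 8 (3.14%), and in Tex15HT against Tex15WT 1 and 3 (0.537%). These shares are near those of all tiles, or rest on 4 tiles.

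Limma called 0 Hox tiles in the same 4 comparisons as well, where it called 0.0966, 0.0627, 0.277 and 0% of all tiles (against Tex15WT, Tex15HT and both, and in Tex15HT against Tex15WT). Its unadjusted counts of Hox tiles were 6 lower and 11 higher, 2 and 11, 4 and 19, and 1 and 1, which are 7.02, 5.37, 9.50 and 0.826% of the Hox tiles. Over all tiles these shares were 8.51, 6.33, 9.57 and 1.57%, so the Hox tiles lay at or below the background. With Tex15KO 3 left out, edgeR tested 355 Hox tiles and called 0 in the 4 comparisons, against 0.0895, 0.0701, 0.159 and 0% of all tiles. With Tex15KO 16 left out, so that Tex15KO 3 alone stood for its group, it called 14 Hox tiles against Tex15WT (2 lower, 12 higher), 17 against Tex15HT (2 and 15) and 21 against both (3 and 18). These are 5.79, 7.02 and 8.68% of the Hox tiles, against 4.76, 4.76 and 6.69% of all tiles. Lower calls were 0.826, 0.826 and 1.24% of the Hox tiles and 3.01, 3.18 and 4.38% of all tiles in the same order, and higher calls 4.96, 6.20 and 7.44% against 1.75, 1.58 and 2.30%. This difference in direction was not tested. The lone sample is then assumed to vary like the other groups.

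Without a model, both Tex15KO pups lay below all 4 controls in 9 of the 242 Hox tiles, and above all in 18. Over all tested tiles the shares were 4.32% below and 8.24% above, and those of the Hox tiles were 3.72 and 7.44%. The median difference of Tex15KO from the controls was -0.131 points in Hox tiles and 2.17 points in all tested tiles. These medians are not of like tiles. Among tiles with at least 10 pooled control calls, the median control level was 15.1% in the clusters and 91.1% in the rest of the table.

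The 2 largest increases were at tiles of middle level in the controls. At chr2:74508001-74509000, 3.82 kb from the Hoxd12 promoter, the levels were 54.2 and 20% in Tex15WT pups, 31.4 and 39.2% in Tex15HT pups, and 100 and 78.8% in Tex15KO, from 20 to 52 calls. At chr6:52112001-52113000, 1.78 kb from the Hoxa2 promoter, they were 38.5 and 57.6%, 38.9 and 26.8%, and 100 and 67.9%. Tex15KO 3 was at 100% in all 5 of the largest increases. The edgeR unadjusted p against both control groups was 0.0129 and 0.0810 for these tiles (adjusted 1 for each).

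The other increases were at chr15:102863001-102864000, chr11:96204001-96205000 and chr6:52187001-52188000, by 29.7, 25.5 and 18.2 points. The largest decrease, at chr11:96123001-96124000 in HoxB, went from 25.4 and 19% in Tex15WT pups and 9.38 and 12.5% in Tex15HT pups to 0% of 235 calls in Tex15KO 3 and 4.49% of 89 calls in Tex15KO 16. Its edgeR unadjusted p was 0.00766 against Tex15WT (adjusted 0.998). The other decreases were -12.8 points at chr11:96174001-96175000, -12.5 at chr2:74568001-74569000, -10.0 at chr15:102757001-102758000 and -5.66 at chr15:102794001-102795000. None of the 10 passed the adjusted threshold in edgeR or limma.

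Tiles chosen in Tex15WT alone can be read in the other 4 pups without having been used for the choice. The 216 Hox tiles under 10% in Tex15WT pups lay at 2.01 and 2.37% in Tex15HT pups, 3.11% in Tex15KO 3 and 2.47% in Tex15KO 16. In Tex15KO 16, 196 of 216 were under 10% and all 216 under 50%. In Tex15KO 3, 127 of 152 with at least 10 calls were under 10%, and 3 were over 50% (1.97%, against 2.91% in the rest of the table). Of such tiles elsewhere with at least 10 calls, 34091 of 40096 were under 10% in Tex15KO 16 and 25079 of 28673 in Tex15KO 3. Under 50% were 99.6 and 96.7% of them. The Hox tiles that stayed low were thus near the background. The 89 tiles over 80% in Tex15WT pups lay at 89.5 and 88.0% in Tex15HT pups, 94.5% in Tex15KO 3 and 89.2% in Tex15KO 16, and in both Tex15KO pups 0 of them fell under 50% (of 37 and 82 tiles with at least 10 calls). Outside the clusters 4.90 and 0.657% of such tiles did, so a count of 0 here is near the background.

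The 170 tiles in between lay at 34.4 and 32.3% in Tex15HT pups, 41.3% in Tex15KO 3 and 36.1% in Tex15KO 16. Here the pups differed most, and both Tex15KO values were above both Tex15HT values. In the rest of the table the corresponding tiles lay at 43.9 and 45.0%, 48.8% and 46.4%, in the same order.

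**Figure D5:**
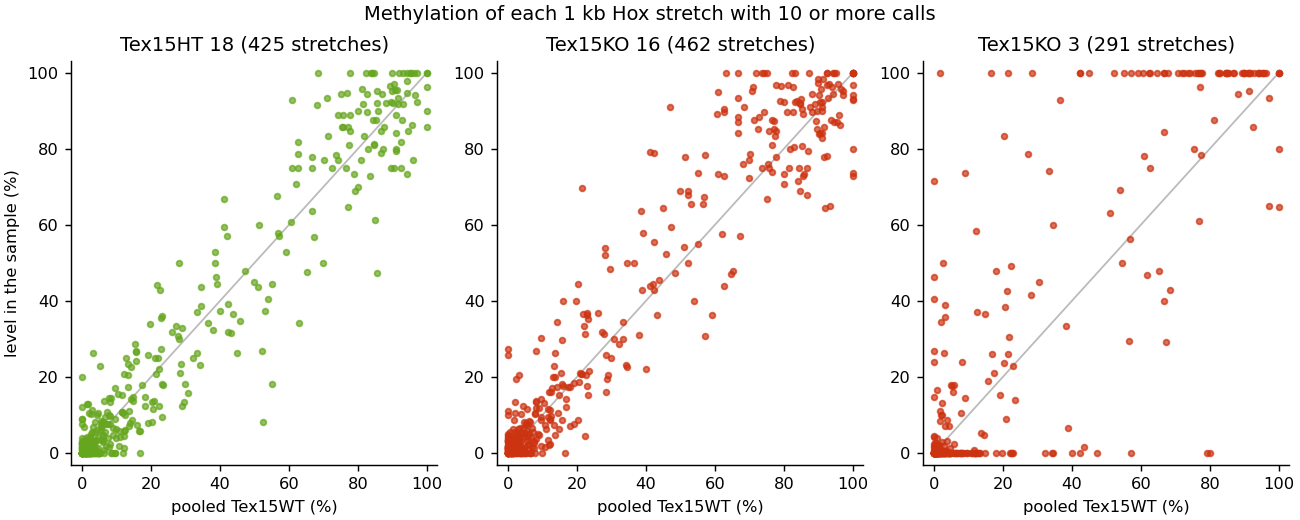
Methylation level of each 1 kb Hox tile with at least 10 calls in Tex15HT 18, Tex15KO 16 and Tex15KO 3 (vertical axis, percent) against the pooled Tex15WT pups (horizontal axis, percent); the grey line marks equal levels. Tiles of Tex15HT 18 and Tex15KO 16 follow the line, while those of Tex15KO 3 gather at 0 and 100%.

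The tile levels of Tex15KO 3 had another shape. Among the 242 tested Hox tiles it had 111 at exactly 0 and 28 at exactly 100%, together 57.4%. In the other 5 pups 14.5 to 28.9% of these tiles were at 0 or 100%, and Tex15KO 16, the pup with most calls, had the lowest share. The part of its many calls per covered CpG, given above, in this shape was not tested.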

How the data were processed

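The authors deposited 1 table for the 6 samples that gives, per the file headers, raw counts at each CpG cytosine: coverage, calls read as C and calls read as T. The build was mm9, and the tools named are methylKit, Bismark and BSMAP, without role or version (per the submitters' processing notes). How PCR duplicates were treated and the conversion rate of the lambda spike are not given in the sources used, and either can move a level. C and T calls summed to the coverage with 0 exceptions.

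Here strands were joined and calls summed over 1 kb tiles. Tiles with at least 3 CpGs and 10 calls in each sample were tested with edgeR 4.0.16 under R 4.3.3 (quasi-likelihood test by glmQLFit and glmQLFTest, 1 fit over the whole table with an intercept per sample), and tiles were called at an adjusted p under 0.05. As the fit estimated infinite prior degrees of freedom, all tiles share a spread, and a tile's p does not reflect how far its own pups differ. The alternative was limma 3.58.1 (log2 of methylated over unmethylated counts, pseudocount 1). Both were also run on simulated calls. The simulated spread between pups was set beforehand and not fitted to these data, so those runs do not show how the fits fare here. Exact permutation tests took the share of splits with an absolute difference at least as large.

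A Hox promoter was placed where at least 4 CpGs coincided with a lead of 2 over the next best place and no listed CpG fell elsewhere in it (6 and 3, over the whole chromosome, for the other lists). None of the microRNA hairpins was placed. With no mm9 genome or annotation used here, tiles have no exon or intron. Named tiles were, in each cluster, the 3 highest in the controls (at least 20 pooled calls) and the 2 unmethylated ones with most calls, and over the clusters the 5 largest changes of Tex15KO in each direction among tiles with both pups outside the controls. Windows, gene lists, tests and alternatives were chosen with earlier results of these data known.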

Additional observations from a re-analysis of the deposited data

How the results depend on the processing

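The cluster against its flanks and the Hox tiles against others with as many listed CpGs kept their direction under every alternative. With 1 pup left out the exact sign-flip test cannot go below 0.0625, so each of these then missed 0.05. Their differences ran from -46.9 to -44.6 points in HoxA, -40.9 to -39.1 in HoxB, -50.1 to -49.0 in HoxC and -50.5 to -48.9 in HoxD, and from -29.0 to -27.6, -33.0 to -32.7 and -13.3 to -12.4 points in the classes of 3 to 9, 10 to 19 and 20 or more CpGs. Tex15KO minus Tex15WT and minus the 4 controls kept its sign in HoxA, HoxB and HoxC under every alternative, though its size moved: minus the controls, from 0.296 to 5.59 points in HoxA, 0.492 to 2.98 in HoxB and 0.732 to 4.94 in HoxC. In HoxD, and in Tex15HT minus Tex15WT, the sign turned with the setting, and the cause was not tested. With cytosines of at least 5 calls, HoxD was -0.571 points in Tex15KO against Tex15WT and -0.230 against the 4 controls. At CpGs with calls in each pup these were -0.425 and -0.249, and Tex15HT minus Tex15WT was -0.0755 in HoxA and 0.361 in HoxB. With the mean over cytosines it was 0.0651 in HoxD. With 1 pup left out, HoxD ran from -0.244 to 1.11 points in Tex15KO minus Tex15WT, -0.175 to 1.18 in Tex15KO minus the controls and -0.813 to 0.538 in Tex15HT minus Tex15WT, and HoxC from -2.03 to 0.188 in Tex15HT minus Tex15WT. The number of Hox tiles under 10% was 225, 264 with a threshold of 20%, 221 with at least 30 pooled calls, and 218 to 227 with 1 control left out. EdgeR's call of 0 Hox tiles held with 30 calls, 10 CpGs, 5 kb tiles, without the top 0.1% of coverage, and with any 1 pup left out except Tex15KO 16, so that with 1 pup left out the counts ran from 0 to 14 against Tex15WT, 0 to 17 against Tex15HT and 0 to 21 against both (the highest counts, without Tex15KO 16, stand beside 4.76, 4.76 and 6.69% of all tiles called). Depth limits single tiles: at 10 calls, the minimum tested, a level of 50% has a 95% Wilson interval of 23.7 to 76.3%. No paired analysis was possible because the groups share no replicate number.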
